A study of Mus musculus with 19 samples.

Results

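Cyp2e1 encodes cytochrome P450 2E1, and its transcript was followed in the epididymal white adipose tissue (eWAT) of 19 mice. The gene was chosen from these same data, as the tested gene with the largest rise in log2 fold change on low dietary Mg2+ within the HFD groups, and it is 1 of the 24237 genes used from the deposited table. Its values in the 2 HFD groups are therefore a description, and no test of them is given. Male C57Bl6/J mice, 9 to 10 weeks old at the start, ate 1 of 4 diets for 17 weeks. Fat gave 10% of the energy in the low-fat diet (LFD) and 60% in the high-fat diet (HFD), and MgO made up 0.21% (wt/wt) of the normal Mg2+ diets (NormMg) and 0.03% of the low Mg2+ diets (LowMg). There were 4 NormMg-LFD mice (replicates 2 to 5) and 5 each of LowMg-LFD, NormMg-HFD and LowMg-HFD mice, with 1 RNA library per mouse. The tissue is whole fat pad, in which a difference in cell numbers and a difference in RNA per cell cannot be told apart.

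Cytochrome P450 enzymes are haem proteins that oxidise small molecules with electrons passed on from NADPH by P450 reductase, with cytochrome b5 as a further donor. Cyp2e1 is best known from the liver, where it oxidises ethanol, acetone, some fatty acids and small drugs such as paracetamol, and is prone to releasing reactive oxygen species. The gene is also expressed in adipocytes. In the liver its level is known to rise with fasting, diabetes and ethanol, and much of that control lies in the stability of the protein, which RNA levels do not show.

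The gene lies on the + strand of chromosome 7 (GRCm38, 140763739 to 140774987 in GENCODE M21). It has 4 annotated transcripts, all of which are pooled in the deposited row, and the longest has 9 exons and 1833 bases. RefSeq places the start site at base 140763819, which is 80 bases downstream of the first GENCODE start. The sequence before both starts is shown because it is the part of the promoter that no annotated transcript covers. It spans chr7:140763569-140763738 (+ strand, GRCm38.p6, RefSeq), and capitals mark a match to CCAAT read on the opposite strand.
Cyp2e1 upstream: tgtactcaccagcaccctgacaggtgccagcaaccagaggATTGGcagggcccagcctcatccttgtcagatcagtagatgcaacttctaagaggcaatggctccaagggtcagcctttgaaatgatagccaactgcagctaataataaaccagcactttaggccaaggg
A TATA box match, TATAAA, began 31 bases before the RefSeq start site. It is shown in capitals within the 30 bases of chr7:140763776-140763805 (+ strand), as an element that, where present, helps to set where transcription starts.
Cyp2e1 TATA window: tcaacgacacgtTATAAAatccttgtttct

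Over the 300 bases from 250 before to 50 after the start site, and on both strands, TATAAA was found in 13.6% of 32851 RefSeq promoters and CCAAT, with 2 matches in Cyp2e1, in 37.4%. The Cyp2e1 window held no exact match to the PPAR direct repeat, the C/EBP palindrome TTGCGCAA or the forkhead motif TGTTTAC. Of all promoters, 0.0396%, 0.183% and 3.65% held one. Of the 8 most similar genes described below that have a promoter entry, 5 held CCAAT and 0 held TATAAA.

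The libraries held 12986441 to 13027028 reads per mouse, of which 86.12% to 90.41% were mapped. The deposited unit is FPKM, a level per unit of transcript length and of sequencing depth. It keeps no read count, so the counting error of a single value is unknown. The adipocyte markers were present in every mouse: the summed FPKM of the 14 genes ranged from 15140 to 25713. By marker lists of the exocrine pancreas and the epididymis, 2 mice carried RNA of other tissues. In NormMg-LFD replicate 3 the 13 exocrine pancreas markers summed to 1834 FPKM, against 12.35 to 61.62 in the other 18 mice, and in LowMg-LFD replicate 4 the 10 epididymis markers summed to 203 FPKM, against 0 to 4.07 in the others. These 2 mice had the highest Cyp2e1 of their own groups, so values are also given without them.

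Cyp2e1 was among the most abundant transcripts of the LFD fat pads, was lowest on the NormMg-HFD and lay between on the LowMg-HFD. On the NormMg-LFD the FPKM in replicates 2 to 5 were 973, 1572, 801 and 1164 (1127 ± 332, mean ± SD, n = 4). On the LowMg-LFD replicates 1 to 5 gave 1750, 3120, 836, 3654 and 1654 FPKM (2203 ± 1154, n = 5). Replicates 2 and 4 of this group were higher than every other mouse, while replicate 3 lay among the NormMg-LFD mice.

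NormMg-HFD replicates 1 to 5 gave 203, 111, 50.98, 72.98 and 164 FPKM (120 ± 63, n = 5). The LowMg-HFD replicates 1 to 5 gave 370, 307, 1027, 681 and 798 FPKM (637 ± 300.3, n = 5). The 2 HFD groups did not overlap: the lowest LowMg-HFD mouse, replicate 2, was above the highest NormMg-HFD mouse, replicate 1. One LowMg-HFD mouse, replicate 3, reached into the NormMg-LFD range, and the other 4 lay below it.

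By rank among the 24237 genes, Cyp2e1 stood between places 15 and 52 in the LFD mice, whichever the Mg2+ level. It stood between 371 and 1803 on the NormMg-HFD and between 46 and 212 on the LowMg-HFD. The groups thus came in the order NormMg-HFD, LowMg-HFD, NormMg-LFD, LowMg-LFD. Only the lowest and the next group were fully apart, and each of the later neighbours in this order overlapped in at least 1 mouse.

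**Figure D1:**
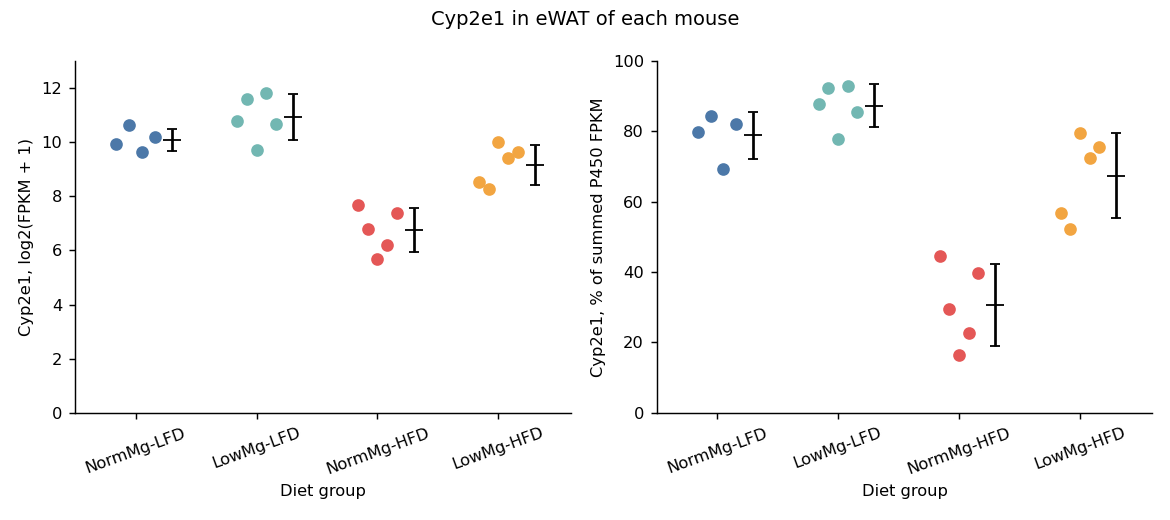
Cyp2e1 in each of 19 mice, as log2(FPKM + 1) (left) and as the percent of the summed FPKM of all cytochrome P450 genes (right), by diet group; points are mice and black bars the mean ± SD (n = 4 for the NormMg-LFD, n = 5 for the others). The NormMg-HFD mice sit between 50.98 and 203 FPKM, below all others, and the LFD groups overlap.

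The question in the first comparison is what low dietary Mg2+ did on each fat level. On the HFD, the LowMg mean was 5.29 times the NormMg mean, with a log2 fold change of 2.42 (SE 0.42). Groups that did not overlap in this direction were found for 3.2% of the 8336 genes tested, but this is the contrast that chose the gene. The next genes below it in this order were Cfd at 2.12, Agt at 2.03 and Gm17571 at 2.03 (log2). Cfd encodes adipsin, a complement factor that adipocytes secrete, and Agt encodes angiotensinogen. Without LowMg-HFD replicate 4, in which Syce1 (below) stood out, the mean was 625 ± 346 FPKM (n = 4), which is 5.19 times the NormMg mean.

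On the LFD, whose mice took no part in the choice of the gene, the LowMg mean was 1.95 times the NormMg mean. The log2 fold change was 0.83 (SE 0.44; 95% CI -0.10 to 1.76), and 4 of the 5 LowMg-LFD mice were above all NormMg-LFD mice. This did not pass the test over all genes (limma, adjusted p = 0.775, unadjusted p = 0.0773), nor an exact two-sided permutation test of this 1 gene over 126 arrangements (p = 0.127). The smallest p this test can give is 0.0159. In limma 0 of 8336 genes passed for Mg2+ on the LFD (0%), and 547 had an unadjusted p under 0.05 (6.56%). By size of log2 fold change Cyp2e1 was at place 20 from the top. Without the 2 mice with pancreas or epididymis RNA the ratio of means was 1.88 (log2 fold change 0.78, limma adjusted p = 0.669; exact two-sided permutation p = 0.171, n = 4 and 3). The rise on the HFD exceeded that on the LFD by 1.59 on the log2 scale (SE 0.61), which is a description since the HFD term chose the gene.

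The second comparison asks what the HFD did at each Mg2+ level; it shares the HFD mice with the choosing contrast and is given without a test. At normal Mg2+ the LFD mean was 9.36 times the HFD mean, a log2 fold change of -3.34 (SE 0.44), the third lowest of all tested genes. At low Mg2+ the LFD mean was 3.46 times the HFD mean, a log2 fold change of -1.75 (SE 0.42), at place 8 from the lowest. All 5 NormMg-HFD mice were below all NormMg-LFD mice, which was so for 10.6% of tested genes, and 4 of 5 LowMg-HFD mice were below all LowMg-LFD mice.

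Cyp2e1 made up most of the summed P450 FPKM in every mouse outside the NormMg-HFD group. The summed level of the other members varied little beside that of Cyp2e1. It made up 69.3% to 84.4% of the summed FPKM of all P450 genes on the NormMg-LFD and 77.9% to 92.8% on the LowMg-LFD. The share was 16.5% to 44.6% on the NormMg-HFD and 52.3% to 79.5% on the LowMg-HFD. The sum of the other P450 genes stayed between 237 and 355 FPKM in all 19 mice, with group means from 255 ± 7.68 (NormMg-HFD, n = 5) to 286 ± 49.9 (NormMg-LFD, n = 4). The 69.3% and the 355 FPKM both belong to NormMg-LFD replicate 4. In that mouse Cyp11a1, Cyp17a1 and Cyp21a1, described in the closing section, gave 32.58, 29.51 and 13.24 FPKM.

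The table held 75 other P450 genes. Of these 64 fell below the filter (a group mean above 8 FPKM, with 4 or more mice of that group above 8), 42 of them never over an FPKM of 1, and 11 were tested. The filter can be passed through a single high group, so the 11 are not all P450 genes. For Mg2+ on the HFD 1 of 11 was called at an adjusted p under 0.05 (limma), against 18.5% of all tested genes. The median log2 fold change of the 11 was 0.14, against -0.04 over all tested genes.

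That gene was Cyp1b1, which oxidises steroids and retinoids. Its FPKM on the NormMg-HFD were 18.24, 20.18, 20.64, 18.87 and 12.52, and on the LowMg-HFD 13.60, 12.40, 12.90, 8.67 and 11.21. It was lower on the LowMg-HFD, and the groups overlapped only through NormMg-HFD replicate 5. This was a log2 fold change of -0.58 (SE 0.18, adjusted p = 0.0302), opposite in sign to Cyp2e1. The call was lost under 8 of the 29 alternatives to the processing that were tried (closing section). Among these were the fits without NormMg-HFD replicate 1, 2, 3 or 4 or LowMg-HFD replicate 4 or 5 (adjusted p from 0.0602 to 0.0829).

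On the LFD, low Mg2+ gave 0 calls among the 11 P450 genes in limma, and 2 had an unadjusted p under 0.05, against 6.56% of all tested genes. They were Cyp4f17 (log2 fold change 0.56) and Cyp4f16 (-0.39), of the family 4 fatty acid hydroxylases. For fat at normal Mg2+ 5 of 11 were called, against 37.4% of all tested genes, and for fat at low Mg2+ 2 of 11, against 15.9%. At normal Mg2+ Cyp2f2, Cyp2d22 and Cyp27a1 fell (12.8% of all tested genes) and Cyp4v3 and Cyp1b1 rose (24.6%). At low Mg2+ Cyp4v3 rose (12.4% of all) and Cyp2f2 was called lower (3.51%). Cyp2f2 passed the filter only through the LowMg-LFD group, an arm of this contrast, so its call at low Mg2+ is not read further. Without the 2 mice with pancreas or epididymis RNA the counts were 3 and 1 of the 10 then tested: Cyp2f2 no longer passed the filter, as when LowMg-LFD replicate 1, 2, 4 or 5 alone was left out, and Cyp4v3 lost its call at normal Mg2+. Over the 17 mice, 2640 (normal Mg2+) and 1202 (low Mg2+) of all 8329 tested genes were called. After median centring per mouse the count at low Mg2+ was 4 of 11, with 1124 of all 8336 tested genes called.

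Cyp2f2, which oxidises naphthalene in the lung, had the lowest log2 fold change for fat at normal Mg2+ of the 11 P450 genes. Its FPKM were 4.00, 16.33, 14.64 and 3.97 on the NormMg-LFD and 24.58, 14.75, 3.85, 28.92 and 8.82 on the LowMg-LFD. On the NormMg-HFD they were 0.74, 0.57, 0.49, 0.25 and 0.57, and on the LowMg-HFD 0.99, 1.25, 1.38, 2.67 and 0.74. All NormMg-HFD mice were below all NormMg-LFD mice, as for 10.6% of tested genes. The log2(FPKM + 1) fold change at normal Mg2+ was -2.58 (SE 0.46, adjusted p = 0.000229). At low Mg2+ it was -2.61 (SE 0.44), given as a description because the filter required a high LowMg-LFD group. For Mg2+ on the HFD it was 0.62 (SE 0.44, adjusted p = 0.348), where all values were near the pseudocount of 1.

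Cyp2d22, of a family of drug-oxidising enzymes, gave 8.30, 10.52, 7.42, 8.80 and 9.41 FPKM on the NormMg-HFD and 13.34, 9.70, 12.65, 14.69 and 11.42 FPKM on the LowMg-HFD. Only LowMg-HFD replicate 2 lay within the NormMg-HFD range. The log2 fold change of 0.43 (SE 0.16, adjusted p = 0.0708) did not pass, but it did under median centring per mouse (adjusted p = 0.0311), quantile normalization (0.0244) or a fit of only the HFD groups (adjusted p = 0.0400 for Cyp2d22 Mg2+ on the HFD), and without LowMg-LFD replicate 3 or LowMg-HFD replicate 2 (adjusted p from 0.0403 to 0.0488).

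Cyp2d22 fell with fat at normal Mg2+ by 0.91 on the log2 scale (SE 0.17, adjusted p = 0.000352). Cyp27a1, the mitochondrial sterol 27-hydroxylase, fell by 0.65 (SE 0.17, adjusted p = 0.00551). Cyp4v3, a fatty acid hydroxylase, had a log2 fold change of 0.59 (SE 0.19, adjusted p = 0.0203) at normal and 1.00 (SE 0.18, adjusted p = 0.0017) at low Mg2+. Its call at normal Mg2+ was lost without NormMg-LFD replicate 4 (adjusted p = 0.0801), and under 4 other alternatives: no filter, median centring per mouse, quantile normalization, and the 17 mice without the 2 that held pancreas or epididymis RNA (for Cyp4v3 fat at normal Mg2+, adjusted p from 0.0512 to 0.0645). Cyp1b1 had 0.59 at normal Mg2+ (SE 0.19, adjusted p = 0.019), a call lost without NormMg-LFD replicate 2 or 5 (adjusted p from 0.0638 to 0.0645).

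**Figure D2:**
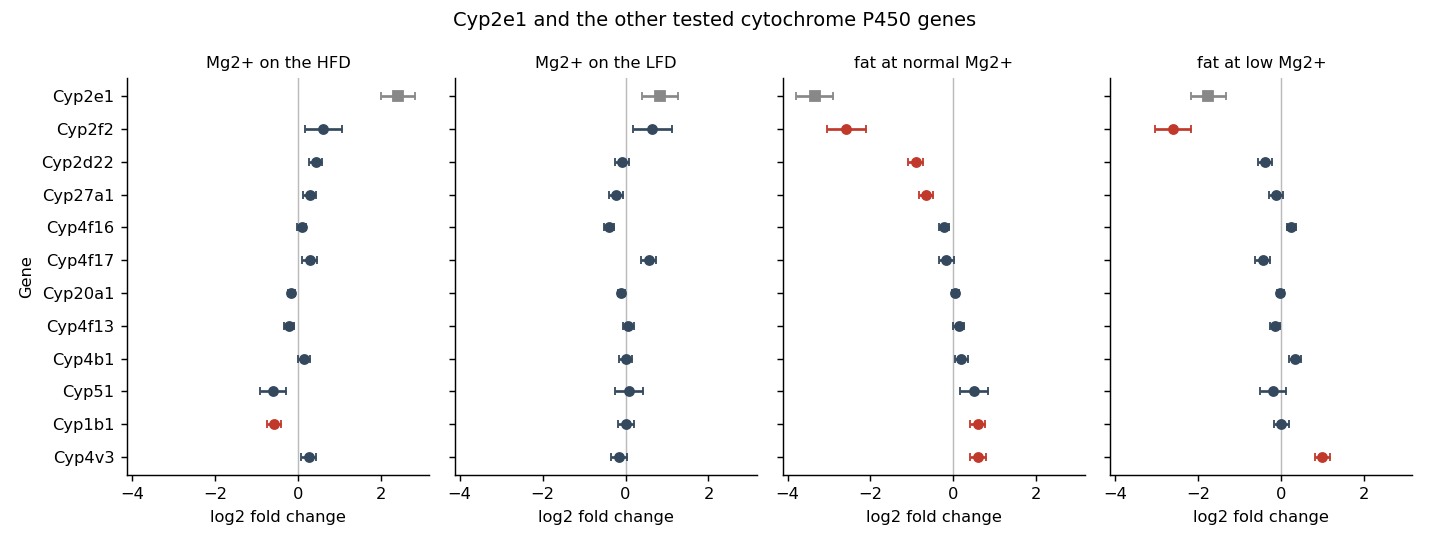
log2 fold change ± SE from limma on log2(FPKM + 1) for Cyp2e1 (grey square, description only) and the 11 other P450 genes past the filter, in 4 contrasts; red points passed an adjusted p under 0.05. Cyp2e1 lies far from the rest for Mg2+ on the HFD (2.42), and only Cyp2f2 comes near it for fat at normal Mg2+.

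Genes whose products work with Cyp2e1, or are known to control it, were read from 5 lists written from general knowledge, 65 genes in all, of which 49 were tested. For Mg2+ on the HFD 12 of 49 were called, 6 higher and 6 lower, against 18.5% of all tested genes (5.58% higher and 12.9% lower). The median log2 fold change of the 49 was 0.10. Low Mg2+ on the LFD gave 0 calls of 49 in limma, and 4 had an unadjusted p under 0.05, against 6.56% of all tested genes. For fat at normal Mg2+ 29 of 49 were called, against 37.4% of all tested genes, and at low Mg2+ 17 of 49, against 15.9%. The count for Mg2+ on the HFD was 7 without NormMg-HFD replicate 3, LowMg-HFD replicate 3 or LowMg-HFD replicate 5.

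Of the 7 electron donors and cytochrome b5 genes, Por and Cyb5a were higher on the LowMg-HFD (5.58% of all tested genes) and 5 did not pass. Por encodes the P450 reductase that hands electrons to all microsomal P450 enzymes. It gave 117, 103, 111, 110 and 102 FPKM on the NormMg-HFD and 151, 150, 252, 114 and 179 FPKM on the LowMg-HFD. LowMg-HFD replicate 4 was the 1 mouse within the NormMg-HFD range. Por rose by 0.59 on the log2 scale (SE 0.18, adjusted p = 0.0258), and the call was lost under 4 of the 29 alternatives. Among these were the fits without NormMg-HFD replicate 3 or LowMg-HFD replicate 3 or 5 (adjusted p from 0.0526 to 0.0795).

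Por was highest on the LFD, at 257 ± 46.4 FPKM with normal Mg2+ (n = 4) and 261 ± 53.3 FPKM with low Mg2+ (n = 5). It fell with fat at both Mg2+ levels, by 1.22 (adjusted p = 4.61e-05) and 0.64 (adjusted p = 0.0176) on the log2 scale. The latter call was lost with no filter or with only the LowMg groups fitted (adjusted p up to 0.0700). Cyb5a, cytochrome b5 of the endoplasmic reticulum, rose by 0.33 (SE 0.11, adjusted p = 0.0401) on the LowMg-HFD. This call was lost under 12 of the 29 alternatives. Among these were leaving out any of 7 mice (adjusted p up to 0.113), or the 2 mice with pancreas or epididymis RNA (adjusted p = 0.0545). Cyb5b, the cytochrome b5 of the outer mitochondrial membrane, had a log2 fold change of -0.38 (adjusted p = 0.194), and Pgrmc1, a haem-binding partner of P450 enzymes, had 0.10 (adjusted p = 0.391).

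Of 11 haem genes tested, Alad was higher and Hmox1 lower on the LowMg-HFD, a share near the 18.5% of all tested genes. Alad encodes an early enzyme of haem synthesis. It gave 21.05, 22.38, 24.04, 20.98 and 24.89 FPKM on the NormMg-HFD and 24.48, 24.78, 40.81, 39.81 and 30.75 FPKM on the LowMg-HFD. Replicates 3 and 4 of the LowMg-HFD were the highest and replicates 1 and 2 lay within the NormMg-HFD range. This was a rise of 0.46 on the log2 scale (SE 0.13, adjusted p = 0.0224). The call was lost under 7 of the 29 alternatives. Among these were the fits without NormMg-HFD replicate 1 or 4 or LowMg-HFD replicate 3 or 4 (adjusted p from 0.0547 to 0.0729). Alas1, the rate-limiting step outside red cells, had 0.11 (adjusted p = 0.706).

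Hmox1 encodes the inducible haem oxygenase that breaks haem down, and macrophages express it strongly. It gave 88.35, 83.59, 107, 90.97 and 67.99 FPKM on the NormMg-HFD and 60.17, 58.57, 28.77, 39.57 and 26.32 FPKM on the LowMg-HFD. The groups did not overlap, which was so for 9.56% of tested genes in this direction. Hmox1 fell by 1.09 on the log2 scale (SE 0.21, adjusted p = 0.00284), and fat at normal Mg2+ gave 2.05 (SE 0.22, adjusted p = 2.12e-06).

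Alcohol and aldehyde enzymes handle the substrates and products of Cyp2e1. Of 15 tested, 1 was higher and 4 were lower on the LowMg-HFD, against 5.58% and 12.9% of all tested genes. Aldh6a1, a mitochondrial enzyme of valine breakdown, gave 67.68, 82.29, 49.82, 65.86 and 83.11 FPKM on the NormMg-HFD and 105, 94.38, 153, 106 and 125 FPKM on the LowMg-HFD. Its groups did not overlap, as for 3.2% of tested genes in this direction, and it rose by 0.74 on the log2 scale (SE 0.13, adjusted p = 0.00224). Aldh3b1 fell by 0.68 (adjusted p = 0.0121), Aldh9a1 by 0.41 (adjusted p = 0.0216), Akr1a1, an aldehyde reductase, by 0.40 (adjusted p = 0.0042) and Akr1b3, the aldose reductase, by 0.33 (adjusted p = 0.0342). The call of Akr1b3 was lost under 9 of the 29 alternatives, among them median centring per mouse (adjusted p = 0.113) and any of 5 mice left out. That of Aldh9a1 was lost under 6, among them any of 5 mice left out (adjusted p up to 0.0665).

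The enzymes that most directly share ethanol with Cyp2e1 did not pass for Mg2+ on the HFD. Adh1, the main alcohol dehydrogenase, had a log2 fold change of 0.33 (adjusted p = 0.0838), Aldh2, the mitochondrial acetaldehyde dehydrogenase, 0.32 (adjusted p = 0.0935), and Cat, catalase, 0.16 (adjusted p = 0.243). Of 6 ketone body and acetone enzymes 0 were called in limma, against 18.5% of all tested genes. At an unadjusted p under 0.05 there were 3, a threshold that at least 18.5% of all tested genes met. The count of calls was 1 under 7 of the 29 alternatives tried: both scalings, a fit of only the HFD groups, the 17 mice, and without NormMg-LFD replicate 4, LowMg-LFD replicate 4 or NormMg-HFD replicate 5.

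Among regulators, 10 of 20 listed genes were tested, of which 2 were higher and 1 lower (5.58% and 12.9% of all tested genes). Rxra, the partner of many nuclear receptors, was higher on the LowMg-HFD (log2 fold change 0.35, SE 0.09, adjusted p = 0.00889), as was Insr, the insulin receptor (0.52, SE 0.13, adjusted p = 0.00889). Cebpb, a transcription factor of inflammation and early adipogenesis, fell by 0.57 (SE 0.18, adjusted p = 0.0328), a call lost under 8 of the 29 alternatives. Among these were the fits without NormMg-HFD replicate 3 or 4 or LowMg-HFD replicate 4 or 5 (adjusted p up to 0.104) and median centring per mouse (adjusted p = 0.0517). Pparg had 0.47 (adjusted p = 0.0621) and Foxo1, which insulin signalling switches off, had 0.32 (adjusted p = 0.0639). The liver factors Hnf4a and Foxa2 were below the filter in eWAT, with the highest single values at 11.71 and 0.46 FPKM.

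**Figure D3:**
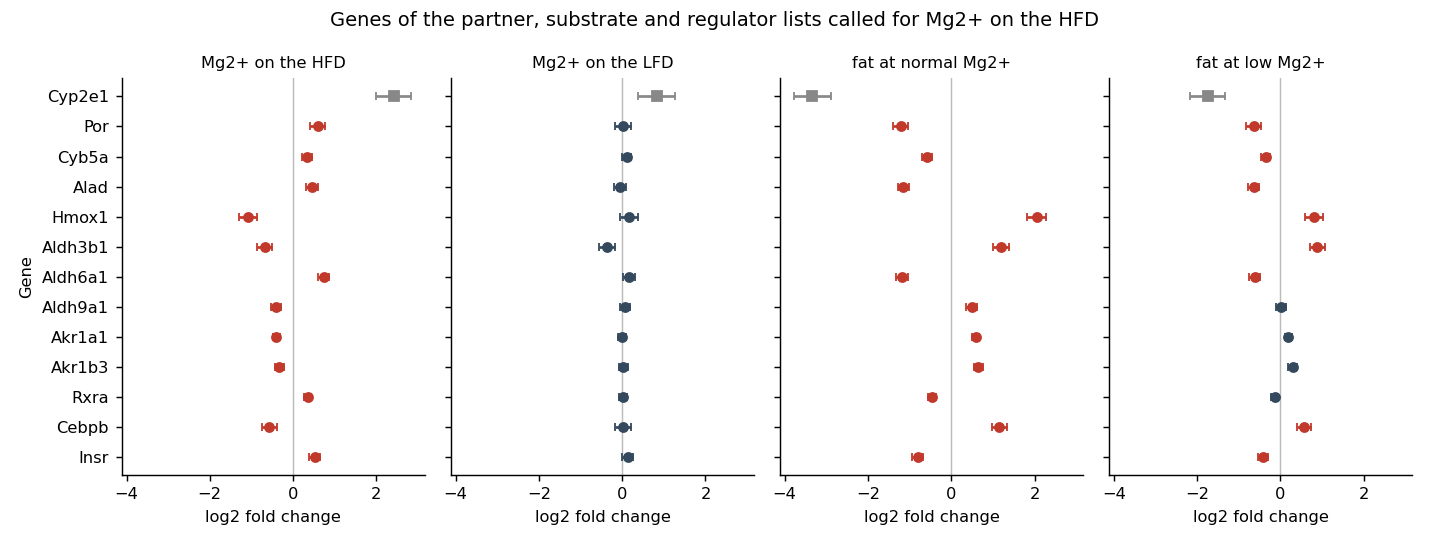
log2 fold change ± SE from limma on log2(FPKM + 1) for Cyp2e1 (grey square, description only) and the 12 genes of the donor, haem, aldehyde and regulator lists called for Mg2+ on the HFD, in 4 contrasts; red points passed an adjusted p under 0.05. For Mg2+ on the LFD no point is red, and Por, Alad, Aldh6a1 and Insr lie above 0 for Mg2+ on the HFD and below 0 for fat.

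The genes next to Cyp2e1 on chromosome 7 were nearly silent in eWAT. On its left Olfr542-ps1, Olfr541 and Olfr45, an olfactory receptor pseudogene and 2 olfactory receptor genes, reached at most 0.65 FPKM in a mouse. On its right Syce1, a gene of the synaptonemal complex of meiosis on the opposite strand, lies 2242 bases beyond the end of Cyp2e1. It stayed at or below 5.53 FPKM in 18 mice and was 41.95 FPKM in LowMg-HFD replicate 4. Zfp941 reached at most 0.32 FPKM, and Gm29799 was not analysed here.

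Across the 19 mice, the genes most like Cyp2e1 were ranked by Pearson r of log2(FPKM + 1). The diet groups stand apart and all genes share the same libraries, so r is given as a description only. The 10 highest were Mettl7a1 (r = 0.97), Aldh6a1 (0.96), Cfd (0.96), Pde3b (0.96), Echdc3 (0.95), Car5b (0.95), Acss3 (0.95), Zan (0.95), Gys1 (0.94) and Csad (0.94). Of these, Pde3b is the phosphodiesterase through which insulin restrains lipolysis and Gys1 is a glycogen synthase. Car5b is a mitochondrial carbonic anhydrase, Acss3 a mitochondrial acyl-CoA synthetase and Csad an enzyme of taurine synthesis.

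Spearman's rho of these 10 genes ranged from 0.94 to 0.98, and r from 0.91 to 0.96 without the 2 mice farthest from the median of Cyp2e1, NormMg-HFD replicates 3 and 4. In all, 311 of 8335 genes had an r over 0.8 and 951 had one under -0.8, with a median of -0.22, so that likeness of this size was common. Without the 2 mice with pancreas or epididymis RNA, 7 of the 10 were again among the 10 highest.

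Of these 10, Cfd had the log2 fold change nearest to that of Cyp2e1 for Mg2+ on the HFD. Its FPKM were 4385, 7899, 6492 and 4122 on the NormMg-LFD and 7483, 8766, 3501, 8133 and 5779 on the LowMg-LFD. They were 378, 397, 287, 350.3 and 649 on the NormMg-HFD and 1652, 806, 3539, 1667 and 1963 on the LowMg-HFD. As with Cyp2e1, LowMg-LFD replicate 3 was the lowest LFD mouse of its group and LowMg-HFD replicate 3 the highest HFD mouse. The other 9 had smaller differences on the HFD, and their log2 fold changes for Mg2+ on the HFD ran from 0.45 (Gys1) to 1.31 (Zan).

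The 5 genes with the lowest r were Cdc42 (-0.96), Maoa (-0.95), Prelid1 (-0.95), Mob3a (-0.95) and Pea15a (-0.95). Cdc42 is a small GTPase of the actin skeleton and Maoa is monoamine oxidase A. Cdc42 gave 241, 225, 269, 235 and 217 FPKM on the NormMg-HFD and 196, 210.2, 170, 161 and 186 FPKM on the LowMg-HFD. Thus all LowMg-HFD mice were below all NormMg-HFD mice, as for 9.56% of tested genes, in a gene picked for its low r. The log2 differences were small, from -0.36 (Cdc42) to -0.55 (Pea15a).

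**Figure D4:**
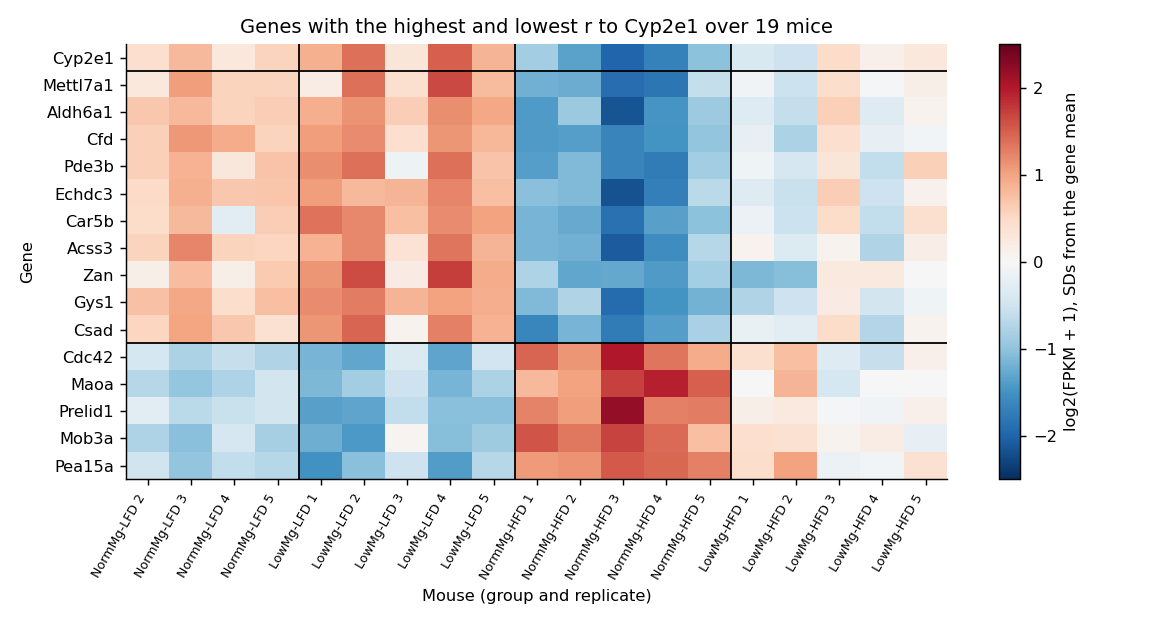
log2(FPKM + 1) of Cyp2e1, the 10 genes with the highest and the 5 with the lowest Pearson r to it, in SDs from each gene's mean, for 19 mice in columns by diet group. The NormMg-HFD mice are low (blue) for Cyp2e1 and the 10 genes and high (red) for the 5, with the LowMg-HFD mice between.

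After each group's mean had been subtracted, so that only mice on the same diet were compared, the median r over all genes was -0.02, with 22 genes over 0.7 and 22 under -0.7. Of these, 4 had an r over 0.8 and 0 had one under -0.8. The 4 were Bcat2 (r = 0.90, rho = 0.89), Zan (0.90), Slc5a6 (0.86) and Mettl7a1 (0.83), followed by Dhtkd1 (0.79), Etfbkmt (0.78), Zfand6 (0.77), Aldh6a1 (0.77), Fmo5 (0.77) and Cfd (0.76). Mettl7a1, Aldh6a1, Zan and Cfd were also among the 10 highest over all mice. Bcat2 is the mitochondrial transaminase that starts branched-chain amino acid breakdown, to which Aldh6a1 also belongs. Slc5a6 is a carrier of biotin and pantothenate, and Dhtkd1 and Etfbkmt encode mitochondrial proteins.

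Bcat2 gave 119.62, 140, 81.39, 147 and 118 FPKM in LowMg-LFD replicates 1 to 5, 63.51, 57.34, 47.25, 52.92 and 62.25 FPKM in NormMg-HFD replicates 1 to 5, and 59.81, 55.03, 86.78, 63.46 and 72.60 FPKM in LowMg-HFD replicates 1 to 5. In each of these 3 groups the mice came in the same order by Bcat2 as by Cyp2e1. On the NormMg-LFD, with 94.82, 106, 93.85 and 81.64 FPKM in replicates 2 to 5, the highest mouse, replicate 3, was shared and the order of the others was not. Without the 2 mice with the largest deviations of Cyp2e1, LowMg-LFD replicate 3 and NormMg-HFD replicate 3, r was 0.86. The log2 fold changes of Bcat2 were smaller than those of Cyp2e1 in all 4 contrasts: 0.24 for Mg2+ on the HFD, 0.34 on the LFD, -0.72 for fat at normal and -0.82 at low Mg2+.

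Transcripts that mark adipocytes and macrophages also differed between the HFD groups. Of 14 adipocyte markers, 6 rose and 0 fell on the LowMg-HFD (5.58% and 12.9% of all tested genes): Adipoq, Plin1, Retn, Slc2a4, Adrb3 and Pck1. Adipoq, which encodes adiponectin, had a log2 fold change of 0.69 (SE 0.17, adjusted p = 0.00872), and Retn, which encodes resistin, had 1.33 (SE 0.21, adjusted p = 0.00178). The 14 genes summed to 16295 to 21157 FPKM on the NormMg-HFD and to 18966 to 23596 FPKM on the LowMg-HFD, ranges that overlap. On the LFD the sums were 15140 to 23327 FPKM with normal and 21373 to 25713 FPKM with low Mg2+.

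Of 16 macrophage markers, 14 fell on the LowMg-HFD (12.9% of all tested genes), and Cd163 and Mertk did not pass. The median log2 fold change of the 16 was -1.21, with a range from -1.81 to 0.27. A marker can pass the filter through the NormMg-HFD group alone, an arm of this contrast, and how many did so was not counted. They summed to 3369 to 5289 FPKM on the NormMg-HFD and to 1035 to 2965 FPKM on the LowMg-HFD, against 817 to 954 FPKM on the NormMg-LFD and 650 to 1227 FPKM on the LowMg-LFD. No marker of either list was at 0 in all mice of a group. Low Mg2+ on the LFD gave 0 calls among the 14 and 0 among the 16 in limma. At an unadjusted p under 0.05 there were 1 and 0, against 6.56% of all tested genes. The part of these shifts in the difference of Cyp2e1 between the HFD groups was not tested.

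Among mice on the same diet, neither relation of Cyp2e1 to these lists passed its test. Against the mean of the adipocyte markers r was 0.33 (rho = 0.31; two-sided permutation within groups, p = 0.165, adjusted over the 2 relations p = 0.33, n = 19), and 0.38 without the 2 mice farthest from the median. Against the macrophage markers r was -0.25 (rho = -0.19; permutation p = 0.378, adjusted p = 0.378), and -0.14 without the 2 farthest mice. With rho in place of r the permutation p was 0.199 (adjusted 0.398) and 0.488 (adjusted 0.488).

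**Figure D5:**
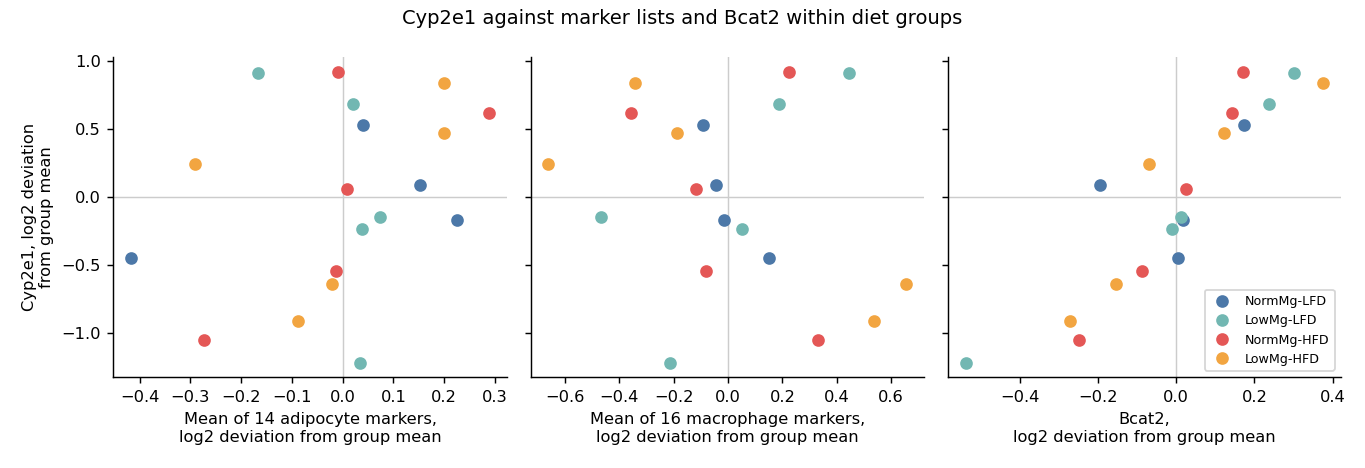
log2(FPKM + 1) of Cyp2e1 as the deviation of each mouse from its group mean, against the same for the mean of 14 adipocyte markers (left), the mean of 16 macrophage markers (middle) and Bcat2 (right); points are 19 mice, coloured by diet group. The marker lists give r of 0.33 and -0.25, and Bcat2, chosen for its likeness, 0.90.

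Hepatocytes are the cells best known for Cyp2e1. Of 14 hepatocyte markers 13 were in the table and summed to 5.33 to 27.81 FPKM in the 19 mice, against 50.98 to 3654 FPKM of Cyp2e1 alone, and in each group 8 to 10 of the 13 stayed under 1 FPKM in all its mice. The only 1 to pass the filter was Alb, which encodes albumin: 1.29, 1.72, 1.13, 1.29 and 5.36 FPKM on the NormMg-HFD and 8.05, 2.93, 18.27, 6.60 and 10.21 FPKM on the LowMg-HFD. It was higher on the LowMg-HFD (log2 fold change 1.65, SE 0.37, adjusted p = 0.0055), with LowMg-HFD replicate 2 as the 1 mouse within the NormMg-HFD range. Of 8 endothelial markers Kdr alone rose (0.54, adjusted p = 0.0103), as did 5.58% of all tested genes. Of 6 stromal progenitor markers 0 were called in limma on the HFD, against 18.5% of all tested genes. At an unadjusted p under 0.05 there were 2, a threshold that at least 18.5% of all tested genes met.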

How the data were processed

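Total RNA of eWAT was sequenced by the authors as single-end reads, and they deposited the FPKM of each gene from RSEM (version 1.2.31; HISAT and Bowtie2 for mapping; GRCm38/mm10, per the labels). The authors also deposited the count of clean reads and the percent mapped for each library. Groups come from the labels. Cyp2e1 and all gene lists were chosen with earlier results of these data known. On log2(FPKM + 1), the 8336 genes past the filter (a group mean above 8 FPKM, with 4 or more mice of that group above 8) entered limma 3.58.1 (under R 4.3.3; 4 groups, variance trend), with two-sided p values adjusted by the Benjamini-Hochberg method (threshold 0.05). Within-group relations used 100000 permutations (Python 3.11.15, scipy 1.17.1). Both procedures were tested on simulated data. Named genes are Cyp2e1, the P450 genes past the filter, called genes of each list with examples that were not, the genes with the highest and lowest r, the 3 genes on each side of the locus and the 3 next in order. The steroid P450 genes in the closing section were chosen after their values were seen. The study left out 1 LowMg-HFD mouse for traces of pancreas. The labels do not name it, and in the deposited values the pancreas markers summed to 24.06 to 51.21 FPKM in the LowMg-HFD mice but to 1834 FPKM in NormMg-LFD replicate 3. Which mouse was meant, and whether a label is at fault, was not resolved. All 19 mice were used, and 1 alternative left out LowMg-HFD replicate 4 with a filter at log2(FPKM + 1) over 3. Some genes of the lists are not reported here.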

Additional observations from a re-analysis of the deposited data

Results flagged for a closer look

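In 136 groups of 4 or 5 mice (34 genes in 4 diet groups), 4 mice lay far from the rest of their group on the log2(FPKM + 1) scale by Dixon's criterion, which chance meets in about 1 of 20 groups. NormMg-HFD replicate 5 had the lowest Cyp1b1 of its group, at 12.52 FPKM, and this mouse lay inside the LowMg-HFD range. NormMg-LFD replicate 4 had the lowest Por, at 188.54 FPKM. Acss3 was highest in NormMg-LFD replicate 3, at 50.22 FPKM, and Prelid1 was highest in NormMg-HFD replicate 3, at 147.21 FPKM. No value of Cyp2e1 itself was far from its group by this criterion.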

How the results depend on the processing

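The log2 fold changes of Cyp2e1 kept their sign and moved by less than the spread between mice under all 29 alternatives: 2.16 to 2.65 for Mg2+ on the HFD, 0.60 to 1.13 on the LFD (adjusted p 0.541 to 0.999), -3.57 to -3.08 for fat at normal and -2.06 to -1.52 at low Mg2+. For Mg2+ on the HFD 0 of 75 P450 genes were called with no filter (1235 of 24237 genes called). Over the 18 samples without LowMg-HFD replicate 4, with the filter also changed to log2(FPKM + 1) over 3, it was 0 of 13 (1411 of 8808). The count was 2 of 11 with median centring, quantile normalization or only the groups compared (1498, 1664 and 1535 of 8336), and 0 to 2 with a mouse left out. At normal Mg2+ fat gave 9 of 75 with no filter (3650 of 24237 genes called). It gave 3 of 10 over the 17 mice without pancreas or epididymis RNA, added once the data had been examined (2640 of 8329), and 4 to 5 with a mouse left out. At low Mg2+ it gave 4 of 11 with either scaling (1124 of 8336 genes with centring, 1079 with quantile normalization). Over the 17 mice it gave 1 of 10 (1202 of 8329), and 1 to 4 with a mouse left out. Genes of the 5 lists called for Mg2+ on the HFD numbered 7 to 17 over the 29 alternatives, against 12 of 49 in the main fit. They numbered 7 with no filter (1235 of 24237 genes called), 14 with median centring (1498 of 8336) and 13 over the 17 mice (1492 of 8329). With a mouse left out they numbered 7 to 15. Of the 10 genes most like Cyp2e1, 6 were again among the 10 under quantile normalization, 5 by Spearman's rho and 6 to 10 with a mouse left out, 6 without LowMg-LFD replicate 4. Scaling moved the balance of all calls: 30.2% of those for Mg2+ on the HFD were higher, 43.3% with centring and 47.2% with quantile normalization, and for fat 65.8%, 50.1% and 46.9% at normal and 78%, 52.8% and 50.9% at low Mg2+. It shifted the median of all genes by at most 0.12 on the log2 scale, and no called gene of any list changed sign.

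The replicate numbers do not pair the mice: only 5 of 27 same-numbered pairs correlated above 0.1 in their deviations. With the replicate block Cyp2e1 gave 0.82 for Mg2+ on the LFD (adjusted p = 0.909), and 1466, 3027 and 1263 genes were called for Mg2+ on the HFD and fat at normal and low Mg2+, against 1542, 3114 and 1329. Mg2+ on the LFD gave 0 calls with the block and 1 with no filter or over the 17 mice. FPKM carry no counts, so low values such as those of Cyp2f2 on the HFD have unknown precision.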

Other observations

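Below the filter, Cyp11a1, Cyp17a1 and Cyp21a1, P450 genes of steroid hormone synthesis, stood out in NormMg-LFD replicate 4. Cyp11a1 and Cyp17a1 did so, to a lesser degree, in LowMg-HFD replicate 4. Cyp21a1 did not, with at most 3.65 FPKM on the LowMg-HFD against up to 3.91 FPKM on the NormMg-HFD. Cyp11b1 and Cyp19a1, of the same synthesis, reached at most 0.06 and 0.5 FPKM in any mouse. Cyp11a1, which starts steroid synthesis from cholesterol, Cyp17a1 and Cyp21a1 were all highest in NormMg-LFD replicate 4, at 32.58, 29.51 and 13.24 FPKM, and were the 3 highest single values among the 64 P450 genes below the filter. LowMg-HFD replicate 4 was next for Cyp11a1, at 9.11 FPKM, and Cyp17a1, at 10.75 FPKM, against at most 1.11 and 0.97 FPKM in the other 17 mice. NormMg-LFD replicate 4 had the lowest Cyp2e1 of its group, 801 FPKM, and the lowest summed adipocyte markers, 15140 FPKM. Without this mouse the log2 fold change of Cyp2e1 for Mg2+ on the LFD was 0.68 in place of 0.83, and adjusted p = 0.999 (limma).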
